A study of Mus musculus with 4 samples.

Results

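Methylated regions at long noncoding RNA genes were described in islets of WT and βRapKO mice. Peaks of the 4 libraries that overlapped by at least 1 bp were joined on chromosomes 1 to 19, which gave 180857 merged regions. A region was kept if it overlapped the body of a long noncoding gene in GENCODE M21 (types lincRNA, antisense, processed transcript, sense intronic, sense overlapping and bidirectional promoter) and neither the body of a protein-coding gene nor the 2 kb upstream of it. This left 10780 regions, while 95916 regions lay at protein-coding genes or their upstream 2 kb and 74161 lay outside both kinds of gene. The choice used positions alone and no tag count.

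Long noncoding RNAs are transcripts that encode no protein. Some act on the chromatin of neighbouring genes, some host snoRNAs or microRNAs that are cut from them, and many run antisense to, or diverge from, the genes of developmental transcription factors, including those of the islet. In mammals most CpG sites are methylated, whereas CpG-rich gene starts (CpG islands) usually are not, and imprinted long noncoding genes are methylated on 1 parental copy at their control regions.

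Islets were taken from mice 8 weeks old, and 2 MeDIP-seq libraries were made per genotype. WT mice were Raptor lox/lox littermates, and βRapKO mice were Raptor lox/lox; RipCre, so both groups carried the floxed alleles of Raptor, the scaffold protein of mTORC1. In βRapKO the Cre recombinase is driven by the rat insulin promoter and acts in insulin-expressing cells, while the libraries came from whole islets, which hold other cells too. The labels give C57BL/6 as strain background, while the study's methods give C57BL/6J for the floxed mice and a mix of C57BL/6J and 129/SvJ for the RipCre line. The sources used here do not say that the libraries of a genotype came from separate animals, so a p-value measures the spread between libraries only. MeDIP-seq enriches sheared DNA with an antibody against methylated cytosine and measures no RNA, so that neither islet markers nor the loss of Raptor could be checked in these data. A lower tag count can come from fewer methylated cells or from less methylation per cell, and these cannot be told apart. The study reports that islets of βRapKO mice of this age held fewer insulin-positive cells, so the mix of cells may also differ between the genotypes.

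Between 25585533 and 31330751 tags per library were left after removal of duplicates, and between 28.1% and 34.2% of them lay in autosomal peaks. WT replicate 2 stood apart with 146612 autosomal peaks of a median width of 936 bp, against 113933 to 117525 peaks of 1058 to 1149 bp in the other libraries. Tags of a region are given below as CPM, which is the count divided by the tags left in that library and multiplied by 1000000, and tag density as CPM per kb of the peaks called in the region. A region without a peak in a library has no tag count there.

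The sequence under the peaks showed what the antibody had to bind. The 200 bases around the middle of the summits held a median of 5 CpG sites in the regions at long noncoding genes (quartiles 4 and 7) and of 6 in all merged regions. They held no CpG at 228 regions (2.12%) and 10 or more at 1231 (11.4%). The following 8 windows are from the plus strand of GRCm38 (mm10), 5′ to 3′, with CpG sites in capitals. The first 4 belong to the regions with few repeats among those of smallest unadjusted p (2 with fewer and 2 with more tags in βRapKO), the next pair to regions called in 1 genotype only, and the last pair to genes of known function.
Gm49742: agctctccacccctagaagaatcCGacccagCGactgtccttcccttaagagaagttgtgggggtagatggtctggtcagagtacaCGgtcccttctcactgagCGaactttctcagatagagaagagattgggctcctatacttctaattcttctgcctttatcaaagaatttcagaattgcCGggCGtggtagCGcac
Gm2164: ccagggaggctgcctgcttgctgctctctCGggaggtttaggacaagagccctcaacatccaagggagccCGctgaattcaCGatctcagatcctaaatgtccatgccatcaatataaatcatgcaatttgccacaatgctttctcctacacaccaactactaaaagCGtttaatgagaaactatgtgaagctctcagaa
2010110G14Rik: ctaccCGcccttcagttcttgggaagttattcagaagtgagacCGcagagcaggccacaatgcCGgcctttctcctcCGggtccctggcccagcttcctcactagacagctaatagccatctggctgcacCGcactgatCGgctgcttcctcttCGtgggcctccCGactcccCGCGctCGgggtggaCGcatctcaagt
1810053B23Rik: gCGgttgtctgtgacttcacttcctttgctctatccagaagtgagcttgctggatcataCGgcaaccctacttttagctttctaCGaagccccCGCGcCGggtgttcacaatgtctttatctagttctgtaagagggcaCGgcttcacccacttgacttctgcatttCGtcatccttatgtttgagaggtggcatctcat
AI506816: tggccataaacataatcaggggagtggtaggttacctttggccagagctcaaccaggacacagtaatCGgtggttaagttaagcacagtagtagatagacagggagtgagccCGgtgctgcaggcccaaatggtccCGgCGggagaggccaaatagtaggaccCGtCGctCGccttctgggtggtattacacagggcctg
4930455J16Rik: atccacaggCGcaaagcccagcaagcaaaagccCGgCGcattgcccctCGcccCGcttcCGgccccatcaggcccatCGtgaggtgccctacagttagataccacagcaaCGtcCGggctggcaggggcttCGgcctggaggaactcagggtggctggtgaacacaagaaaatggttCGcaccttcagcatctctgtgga
Sox2ot: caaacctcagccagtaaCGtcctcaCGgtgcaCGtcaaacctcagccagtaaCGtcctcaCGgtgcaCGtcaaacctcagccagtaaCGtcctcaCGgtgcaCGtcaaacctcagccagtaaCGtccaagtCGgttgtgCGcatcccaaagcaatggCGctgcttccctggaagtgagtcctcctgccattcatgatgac
Meg3: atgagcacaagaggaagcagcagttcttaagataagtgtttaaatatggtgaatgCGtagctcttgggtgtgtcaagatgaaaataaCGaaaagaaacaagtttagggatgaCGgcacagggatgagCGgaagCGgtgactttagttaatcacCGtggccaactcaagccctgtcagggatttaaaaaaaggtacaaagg
The windows lay at chr16:20889957-20890156 (Gm49742, 7 CpG), chr4:124645968-124646167 (Gm2164, 4 CpG), chr3:130900098-130900297 (2010110G14Rik, 12 CpG), chr16:93344099-93344298 (1810053B23Rik, 8 CpG), chr5:23701780-23701979 (AI506816, 7 CpG), chr13:58756647-58756846 (4930455J16Rik, 11 CpG), chr3:34454278-34454477 (Sox2ot, 13 CpG) and chr12:109560840-109561039 (Meg3, 6 CpG). In the Sox2ot window 68.5% of the bases were equal to the base 35 positions further on, so its CpG sites recur in a tandem repeat of that length. In the other 7 windows the highest such share was 39.8%. The summit window of Gm31408, a region named below, is not printed, and there 98.2% of the bases were equal to the base 34 positions further on.

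Of the 9421 autosomal long noncoding genes, 3998 (42.4%) held at least 1 such region. The share was 58.8% among lincRNA genes (3063 of 5209), 18.2% among antisense genes (530 of 2913) and 1.83% among sense intronic genes (6 of 327), a type defined by its place in an intron of another gene. Regions at protein-coding genes were dropped by the choice, which limits the share of types that overlap such genes, antisense genes among them. Genes with a region were longer (median 16.4 kb) than genes without one (3.82 kb). Most genes held few regions: 1831 held 1, 1549 held 2 to 4, 448 held 5 to 9 and 170 held 10 or more. The 8 genes with the most were 6330411D24Rik (56 regions), Gm26573 (45), 2610307P16Rik (44), Sox2ot (41), D130009I18Rik (39), Gm14005 (37), Gm47071 (34) and Gm31135 (33). They spanned 258.6 to 871.5 kb, and their regions numbered 5.16 to 13.1 per 100 kb.

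The regions lay mainly in introns. Introns held 7659, exons away from the gene start 2268 and gene starts 853. Those over a gene start were called in all 4 libraries more often, at 54.5%, against 43.7% over exons and 36.1% over introns. They were also richer in CpG, with a median of 1.83 per 100 bp against 1.63 and 1.47. Regions at long noncoding genes held a median of 1.53 CpG per 100 bp and 24.8% of repeat sequence, as compared with 1.56 and 34.9% outside genes and 1.60 and 18.6% at protein-coding genes.

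CpG density and tag density went together. Of the regions in the lowest quartile of CpG sites per 100 bp, 24.9% were called in all 4 libraries, and of those in the highest, 55%. The median tag density of these quartiles was 1.63 and 2.12 in WT replicate 1, 1.64 and 2.07 in WT replicate 2, 1.52 and 1.91 in βRapKO replicate 1, and 1.53 and 1.93 in βRapKO replicate 2. Spearman's rho between CpG per 100 bp and tag density was 0.28 to 0.32 across regions within a library, a description over 6604 to 8420 regions that share a library. Repeats moved with it too: the 2365 regions of at least 50% repeat sequence had median densities of 2.01, 2.0, 1.84 and 1.84 in the same order of libraries, against 1.76, 1.75, 1.61 and 1.61 in the other 8415. The part of repeats in these levels was not tested.

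Around gene starts the picture depended on CpG density, as the profile of peaks by distance from the start shows. Starts were used if they lay away from protein-coding genes, which left 4599, and were grouped by the CpG sites per 100 bp within 500 bp on either side. Among 1870 starts with fewer than 1 CpG per 100 bp, a peak covered the start in 1.28% to 1.5% of genes per library, less than the 4.64% to 5.19% at 4000 to 5000 bp upstream. For 1850 starts with 1 to 2 CpG it was 12% to 13.9%. At 707 starts with 2 to 4 CpG it was highest, with 36.6% and 39.9% in WT and 35.6% and 37.9% in βRapKO. Of 92 starts with 4 to 6 CpG, 16.3% to 18.5% were covered. The share was low again at the 80 most CpG-rich starts, with 3.75% and 7.5% in WT and 5.0% and 3.75% in βRapKO. Coverage thus rose with CpG density up to 4 CpG per 100 bp and was lower beyond it, in every library. At the start itself WT and βRapKO overlapped in every class (exact permutation test, two-sided, p between 0.667 and 1, where 2 libraries against 2 cannot give less than 0.33).

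**Figure D1:**
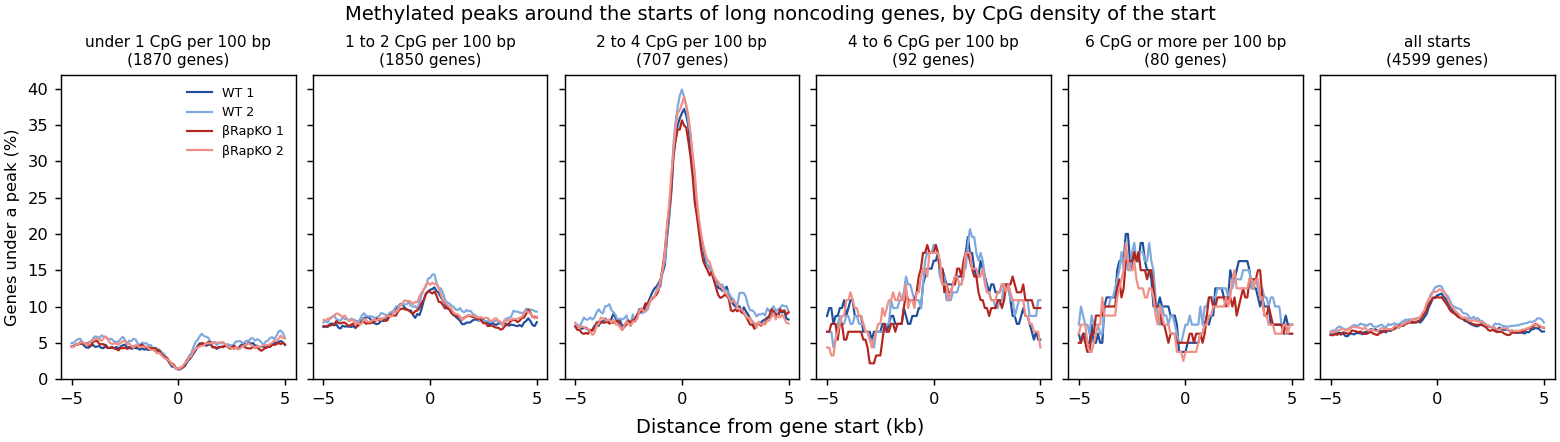
Share of long noncoding genes (y axis, percent) under a peak at each distance from the gene start (x axis, kb), in 1 panel per class of CpG density and 1 for all 4599 starts, with 1 line per library. The 2 to 4 CpG class peaks at 35.6% to 39.9%, the class under 1 CpG dips to 1.28% to 1.5%, and the values of WT and βRapKO overlap at the start in every class.

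At long noncoding genes the median tag density of both βRapKO libraries lay below that of both WT libraries. The median over regions was 1.80 and 1.78 in the WT libraries (mean 1.79 ± 0.00927, SD, n = 2) and 1.64 and 1.64 in the βRapKO libraries (1.64 ± 0.00157, SD, n = 2), a log2 ratio of -0.12. The p was 0.33, the smallest that 2 libraries against 2 can give (exact permutation test, two-sided). The peaks behind these densities were called longer in βRapKO (medians of 1111 and 1161.5 bp per region, against 1069.5 and 957 bp in WT). When tags were scaled to the tags in peaks instead of all tags left, the log2 ratio was 0.04, so its sign depended on the scaling. The median fold enrichment over the local background was 7.31 and 7.34 in WT and 6.9 in both βRapKO libraries.

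The same difference was seen outside genes, with a log2 ratio of -0.12. Within each library the density at long noncoding genes stood just under that outside genes, at log2 ratios of -0.04 in all 4 libraries, and WT and βRapKO did not differ in it beyond the spread of the libraries (difference -0.00057, exact permutation p = 1). Long noncoding genes held 5.81% and 5.78% of the autosomal peak tags in WT and 5.83% and 5.81% in βRapKO.

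Region by region, 4225 of the 10780 had a peak in all 4 libraries and could be tested, within a fit over 72519 such regions. With edgeR's quasi-likelihood test, at an FDR threshold of 0.05 and with a change beyond 1.5-fold, no region at a long noncoding gene was called lower (background 0% of all tested regions) or higher (background 0%), and the smallest adjusted p was 0.380. DESeq2 and limma called none either. At an unadjusted p under 0.05, 145 (3.43%) had fewer tags in βRapKO (background 3.93%) and 86 (2.04%) had more (background 1.90%). More than 1.5-fold fewer tags were counted at 74 regions (1.75%, background 1.80%) and more than 1.5-fold more at 58 (1.37%, background 1.30%). Both βRapKO libraries lay below both WT libraries at 997 regions (23.6%, background 25.3%) and above them at 511 (12.1%, background 11.7%). These shares were close to those of all regions. Leaving out 1 library moved the counts. More than 1.5-fold fewer tags were then counted at 113 regions without WT replicate 1 and at 133 without WT replicate 2. Without βRapKO replicate 1 it was 132 regions, and without βRapKO replicate 2 it was 233. More than 1.5-fold more tags were counted at 145, 130, 109 and 89 in the same order. The median log2 fold-change of all tested regions moved too, between -0.10 and -0.03.

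The median log2 fold-change was -0.05, against -0.06 over all tested regions, and 59.2% of the regions had a value below 0, against 60.7%. This split rested on the scaling. It was 47.6% below 0 after TMM normalization, 47.7% with the size factors of DESeq2, 28.4% after scaling to tags in peaks and 77.6% for tags per kb of peaks. Over all tested regions the shares were 49.4%, 49.7%, 31.1% and 79.5%. TMM and DESeq2 centre the typical region near 0, so an even split there cannot test the direction. Scaling to tags in peaks moved the median of all tested regions to 0.11, and tags per kb of peaks moved it to -0.16. In the lowest quartile of CpG density 53.1% were below 0 and in the highest 65.1%, and the same quartiles of all regions had 55.9% and 66.5%. By gene type the median was -0.04 for lincRNA genes (3132 tested), -0.07 for antisense genes (575), -0.06 for processed transcripts (457), -0.09 for bidirectional promoter genes (46), 0.13 for sense overlapping genes (13) and -0.44 for sense intronic genes (2).

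**Figure D2:**
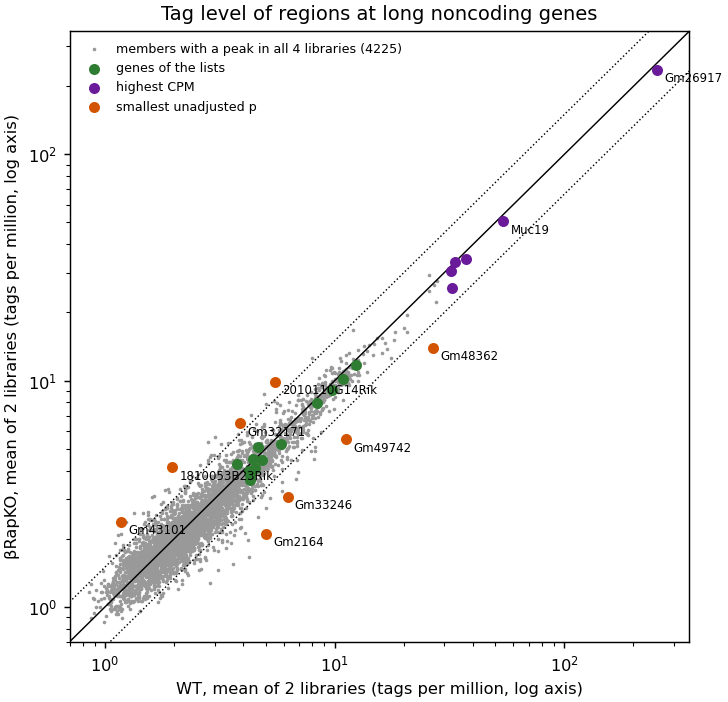
CPM of the 4225 tested regions, as the mean of the WT libraries (x axis) and of the βRapKO libraries (y axis), both on log axes, with the line of equality and dotted lines at 1.5-fold. Coloured points are the named regions; those of smallest unadjusted p lie beyond the dotted lines and the others within them.

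The tag counts of the regions with small p moved with the length that was called as a peak. Of the 145 regions with fewer tags in βRapKO at an unadjusted p under 0.05, 124 also had a shorter called length there, with a median log2 length ratio of -0.31. All of the 86 regions with more tags had a longer called length (0.74), while over the 4225 tested regions it was 0.10, with 2893 longer and 1327 shorter. Per kb of peak the median log2 difference of the 145 was -0.27, and that of the 86 was -0.14. The direction turned for 18 of the 145 and 59 of the 86, and for 1431 of all 4225 tested regions. Over the 4225 regions the called length ratio and the tag ratio had a Spearman's rho of 0.58, a description only, since both come from the same peaks. Tags were counted inside called peaks only, so that the called length is the stretch over which the tags of a library were counted.

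**Figure D3:**
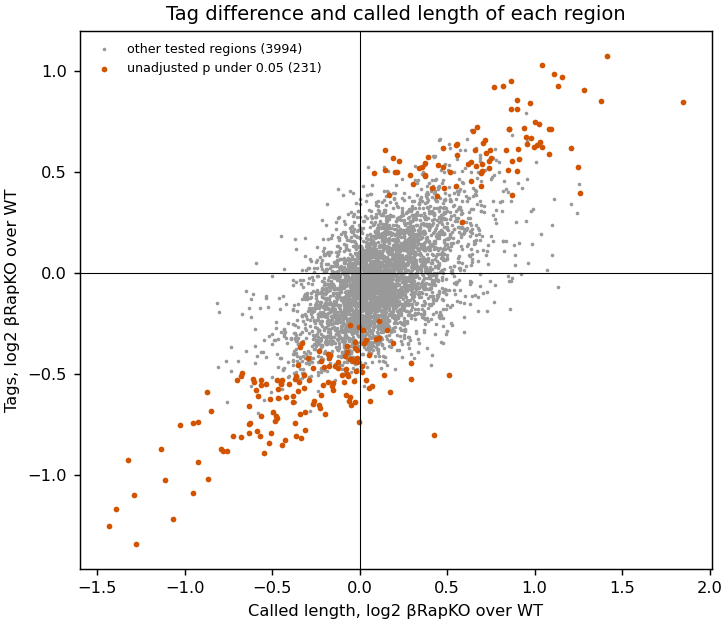
Called length (x axis) and tags (y axis) of each tested region as log2 ratios of βRapKO over WT, with the 231 regions of unadjusted p under 0.05 in orange and the other 3994 in grey. The orange points at the top all lie right of 0 on the length axis, and most of those at the bottom lie left of it.

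The 4 regions with fewer tags in βRapKO and the smallest p were at lincRNA or antisense genes of unknown function. Over the start of Gm48362 (chr9:25855817-25863834, 79.6% repeats) the CPM was 27.4 and 26.3 in WT and 13.3 and 14.6 in βRapKO, a log2 fold-change of -0.94 ± 0.09 (SE). At an exon of Gm49742 (chr16:20888662-20893523), whose summit sequence is given above, it was 9.97 and 12.4 against 5.61 and 5.38 (-1.03 ± 0.14). The groups did not overlap at any of the 4, which the choice by smallest p favours. Over all tested regions both βRapKO libraries lay below both WT libraries at 25.3%. In an intron of Gm33246 (chr14:90682614-90685654, 92.0% repeats) the CPM was 6.49 and 5.97 in WT against 3.22 and 2.91 in βRapKO (-1.02 ± 0.16). An intron of Gm2164 (chr4:124645329-124649112), an antisense gene 7.7 kb from Pou3f1, which encodes a POU-domain transcription factor, had 4.14 and 5.87 against 1.99 and 2.23 (-1.25 ± 0.22). The adjusted p of these 4 lay between 0.380 and 0.393 (edgeR). Their called lengths were 7766, 4007, 2757 and 2488 bp in WT replicate 1 and 4096, 1977, 1681 and 1102 bp in βRapKO replicate 1, and per kb of peak the log2 differences were -0.02, 0.09, -0.16 and 0.18.

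The 4 regions with more tags behaved alike in the other direction. In an intron of 2010110G14Rik (chr3:130899696-130903711) the CPM was 5.04 and 5.90 in WT and 9.48 and 10.3 in βRapKO (log2 fold-change 0.85 ± 0.14), and its called length was 1001 and 1159 bp against 3989 and 3790 bp. Its density per kb of peak was therefore lower in βRapKO, by a log2 difference of -1.0 (limma, adjusted p = 0.246). An exon of 1810053B23Rik (chr16:93343392-93345910) had a CPM of 1.84 and 2.07 against 4.07 and 4.22 (1.08 ± 0.18), with 980 and 857 bp against 2519 and 2383 bp. For an intron of Gm32171 (chr9:33153145-33156238, 84.3% repeats) the values were 3.79 and 3.96 against 6.40 and 6.55 (0.74 ± 0.15). The start of Gm43101 (chr5:75726271-75728185), 69.5 kb from Kit, a receptor tyrosine kinase gene, had 1.33 and 1.02 against 2.5 and 2.26 (1.03 ± 0.21). Adjusted p-values (edgeR) were between 0.380 and 0.438, and none of the 4 had a log2 difference per kb of peak above 0.

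**Figure D4:**
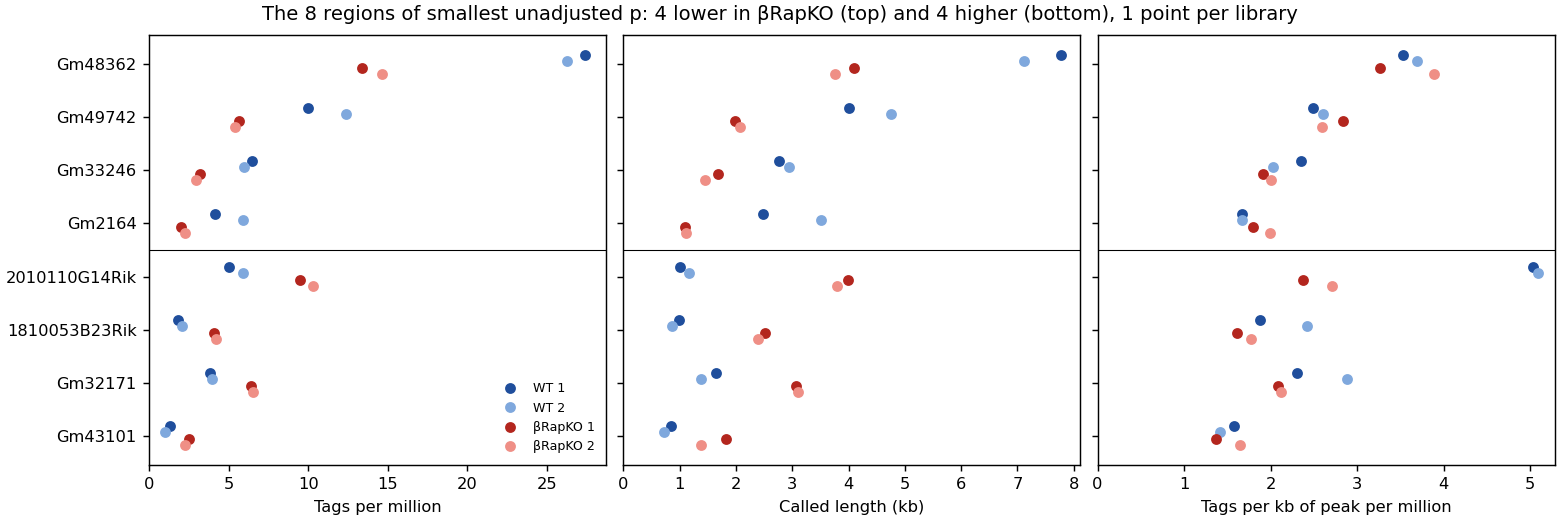
CPM, called length (kb) and CPM per kb of peak (x axes) of the 8 regions of smallest unadjusted p (y axis), with 1 point per library. WT (blue) and βRapKO (red) stand apart in tags and in called length, and in density they lie close together or, as at 2010110G14Rik, in the opposite order.

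A peak in both WT libraries and in neither βRapKO library was called at 422 regions (3.91%, background 4.19% of all merged regions), and the reverse at 159 (1.47%, background 1.59%). With the same number of top-ranked peaks taken from each library the counts were 242 and 299, so the order of the genotypes turned. With stricter peaks (a score of at least 100) they were 284 and 67, in the first order. Shares over all merged regions are not given for these settings, and the cause was not tested. WT replicate 2 alone had a peak at 1412 regions (13.1%, background 12.9%), and each of the other libraries alone at 537 to 583 (4.98% to 5.41%, background 4.66% to 5.04%). The WT-only regions with the most tags were over the start of Gm43549 (chr3:55582602-55586580, CPM of 16.1 and 13.7, 79.1% repeats), an exon of AI506816 (chr5:23700261-23703585, 8.29 and 7.09) and an exon of Gm31408 (chr9:31578872-31582648, 6.84 and 7.95). Of the βRapKO-only regions, those with the most tags were at an exon of 4930455J16Rik (chr13:58753417-58758513, 10.5 and 12.5), 48.1 kb from the neurotrophin receptor gene Ntrk2, an intron of Gm49793 (chr17:27315444-27318083, 4.0 and 5.59) and an intron of Gm47515 (chr12:68915628-68917150, 4.14 and 4.28, 99.1% repeats). RefSeq places the ribosomal protein pseudogene Rpl13-ps2 in the 4930455J16Rik region, so reads may be shared with copies of that sequence elsewhere. A region without a peak may still have held tags, which were not counted in these data.

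The 6 regions with the most tags had log2 fold-changes between -0.34 and 0.01. The highest lay at chr17:39842489-39849327 over the start of Gm26917, with Gm42418 and AY036118, where RefSeq annotates Rn18s-rs5, a copy of the ribosomal RNA unit, and where 8.82 CpG per 100 bp were counted. Its CPM was 255.5 and 251 in WT and 232 and 242 in βRapKO (log2 fold-change -0.10 ± 0.05), and reads from the many other ribosomal copies of the genome may be placed there. Next came an exon of Muc19 (chr15:91905950-91910995), a mucin gene typed as a processed transcript, with 53.7 and 54.7 against 49.6 and 51.4 (-0.10 ± 0.07). The other 4 were repeat-rich by 47.3% to 67.1% and lay at Gm48275, Gm26837, Gm43305 and 4930578N18Rik, with means between 25.6 and 37.2 CPM in either genotype and log2 fold-changes of -0.11, 0.01, -0.08 and -0.34. At 4930578N18Rik WT replicate 1 was high with 37.2, while WT replicate 2 had 27.9 and the βRapKO libraries 25.1 and 26.1.

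Long noncoding genes of known function were taken as 8 lists, and no region of any list passed the test. Among 10 imprinted genes of the annotation, 6 held 35 regions, of which 19 were tested, 9 of them at Snhg14. Of the 19, 11 had a log2 fold-change below 0 (median -0.05). This median turned to 0.01 with TMM and DESeq2, and to 0.11 after scaling to tags in peaks. It was 0.05 without WT replicate 1, and it lay between -0.12 and -0.02 when another library was left out. At an exon of Snhg14 (chr7:59690772-59693774, 83.0% repeats), the host of the Snord115 and Snord116 snoRNA clusters, the CPM was 12.5 and 12.3 in WT and 12.4 and 11.1 in βRapKO (-0.08 ± 0.11). An exon of Meg3 (chr12:109559331-109562249), a maternally expressed RNA of the Dlk1 locus, had 4.81 and 3.99 against 4.31 and 4.70 (0.04 ± 0.17), with overlapping groups. Meg3 held 5 regions and its neighbours Rian and Mirg 7 and 2, of which 4, 1 and 1 were tested with log2 fold-changes between -0.47 and 0.33. The start of H19 (chr7:142576555-142579068), an imprinted RNA beside Igf2, had 66 and 130 tags in WT and 114 in βRapKO replicate 2, and no peak in βRapKO replicate 1. Kcnq1ot1, Nespas and Peg13 were left out because their regions also touched protein-coding genes.

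Among hosts of small RNAs, 2 of 14 snoRNA host genes held a region (Snhg14 and Snhg17), and the 12 without one, among them Gas5, were short with a median of 2.67 kb. The 9 tested regions of snoRNA hosts all lay at Snhg14, and the imprinted list counted them too. Of these 9 regions 4 had a log2 fold-change below 0 (median 0.02). This count became 6 per kb of peaks (median -0.14), 5 without WT replicate 2 (median -0.01), and 1 after scaling to tags in peaks (median 0.19). Of the list of microRNA hosts 7 of 12 genes held a region, 34 regions in all. Of 13 tested, 12 had a log2 fold-change below 0 (median -0.16), as compared with 59.2% of all tested regions at long noncoding genes. After scaling to tags in peaks 4 of the 13 were below 0 and the median was 0.01, and with TMM it was 10 of 13. This list also counts Mirt1 and Mirt2, myocardial infarction associated transcripts that are not known as microRNA hosts. Mirt1 gave 4 of the 34 regions and 2 of the tested ones (-0.41 and -0.24). At Mir142hg (chr11:87755727-87757861), the host of the haematopoietic miR-142, the CPM was 5.75 and 5.94 in WT and 5.20 and 5.24 in βRapKO (-0.16 ± 0.14). At an exon of Mir99ahg (chr16:77670022-77671172), which hosts microRNAs of the miR-99 and let-7 families, it was 4.26 and 4.28 against 3.87 and 3.77 (-0.16 ± 0.16). Both βRapKO libraries lay below both WT libraries at these, as they did at 3 of the 13 in all and at 25.3% of all tested regions. The adjusted p-values were 0.893 and 0.898 (edgeR).

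Beside the genes of islet transcription factors, 5 of 7 long noncoding genes held 29 regions. Of 16 tested, 9 had a log2 fold-change below 0 (median -0.03), and after scaling to tags in peaks 1 did (median 0.13). Single libraries turned this direction, since 6 were below 0 without WT replicate 1 (median 0.12), 7 without βRapKO replicate 1 (median 0.03) and 12 without WT replicate 2 (median -0.12). Pax6os1, antisense to the gene of PAX6, a factor of islet development and hormone expression, held 14 regions. The intronic one with the most tags (chr2:105557662-105559688, repeat sequence throughout) lay 109 kb from Pax6. Its CPM was 9.61 and 9.93 in WT and 9.0 and 9.25 in βRapKO (-0.10 ± 0.11). The genes Nkx2-2os, 9030622O22Rik (beside Foxa2) and Paupar held 7, 4 and 1 regions, and those tested had log2 fold-changes between -0.42 and 0.21.

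Beside other developmental transcription factor genes, 11 of 26 held 83 regions, whereas 13, among them Hotair, Hottip and other transcripts of the Hox clusters, held none. Of 24 tested regions 15 had a log2 fold-change below 0 (median -0.10), and after scaling to tags in peaks 8 did (median 0.06). The list also counts Rmst, with 5 regions and 1 tested (-0.16). The protein-coding gene nearest to its region with the most tags was Nedd1, 569 kb away, so Rmst does not lie beside such a gene. Sox2ot, the transcript that overlaps the pluripotency gene Sox2, held 41 regions over 578.35 kb, and any region at Sox2 itself would be left out by the choice. A peak was called at 21, 32, 22 and 18 of them in WT replicates 1 and 2 and βRapKO replicates 1 and 2, and at 7 in all 4. The one with the most tags, the intronic tandem repeat of the sequence above (chr3:34453616-34455131), had a CPM of 4.53 and 3.99 in WT and 3.42 and 3.84 in βRapKO (-0.23 ± 0.17, adjusted p = 0.873, edgeR).

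Among 10 nuclear or widely expressed long noncoding genes, 4 held a region and 6 held none, including Malat1 and Tug1. Of 8 tested regions 3 had a log2 fold-change below 0 (median 0.03). It was 6 of 8 per kb of peaks (median -0.15), 5 without WT replicate 1 (median -0.07) and 6 without βRapKO replicate 2 (median -0.09), while 1 was below 0 without βRapKO replicate 1 (median 0.13). Pvt1, the transcript downstream of Myc, held 27 of the 30 regions, with a peak at 17, 22, 15 and 12 in the same order of libraries. In its exonic region chr15:62217588-62220823 RefSeq also places Macroh2a3. The CPM of this region was 8.13 and 8.55 in WT and 6.13 and 9.80 in βRapKO (-0.07 ± 0.21). The βRapKO libraries thus stood on both sides of WT. Without βRapKO replicate 1 the log2 fold-change was 0.23. The only region of Neat1, the scaffold of paraspeckles, had a peak in WT replicate 2 alone.

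**Figure D5:**
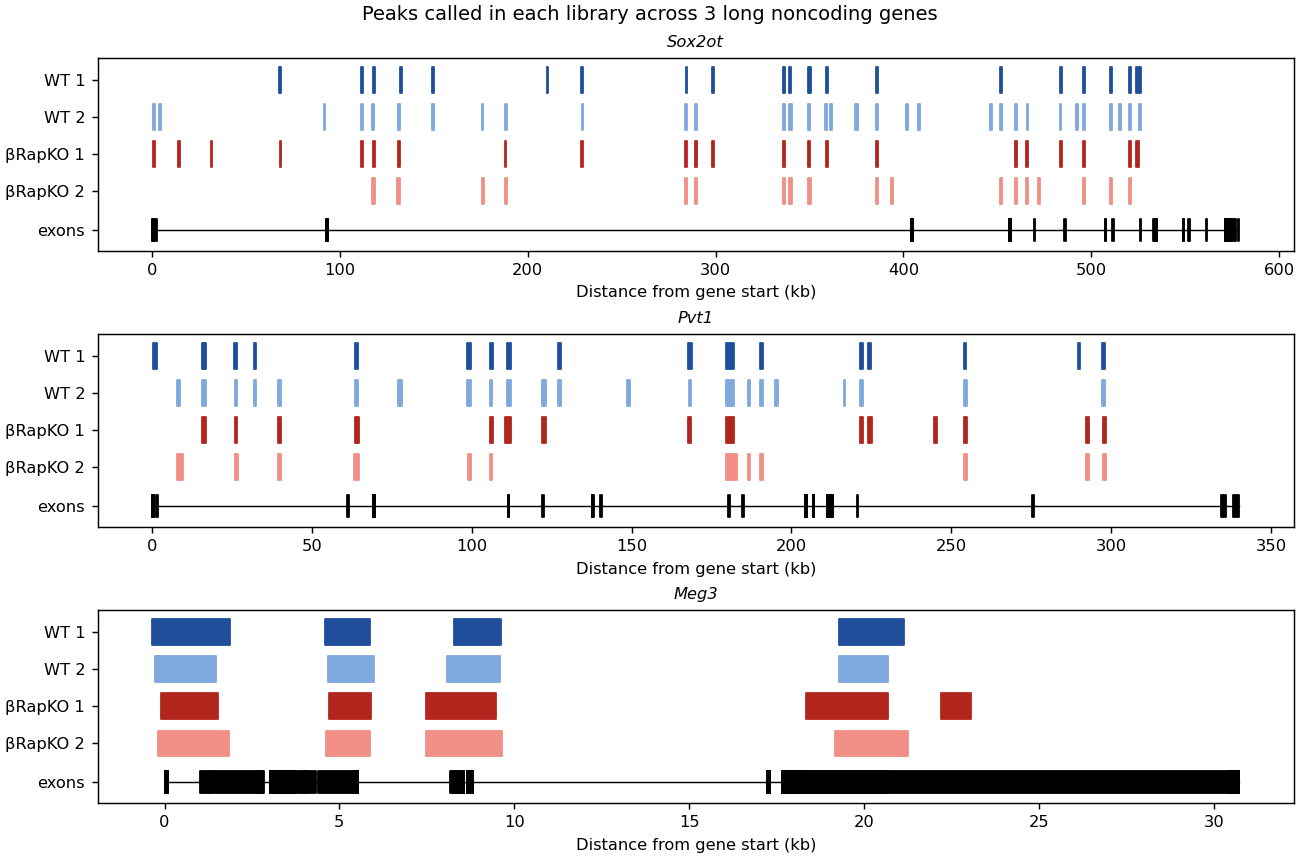
Peaks of each library (coloured bars, 1 row per library) and annotated exons (black) along Sox2ot, Pvt1 and Meg3, by distance from the gene start in kb (x axis), to scale apart from a minimum bar width. At Meg3 the same 4 regions were called in all 4 libraries, while at Sox2ot and Pvt1 7 of 41 and 6 of 27 regions were.

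Of 27 annotated Platr genes, transcripts associated with pluripotency in embryonic stem cells, 17 held 37 regions. Of the 15 tested, 10 had a log2 fold-change below 0 (median -0.10), and after scaling to tags in peaks 4 did (median 0.07). The region with the most tags, in an intron of Platr28 (chr7:107268270-107271879, 90.5% repeats), had a CPM of 10.4 and 11.3 in WT and 10.2 and 10.1 in βRapKO (-0.10 ± 0.11). Regions over the starts of Platr13 (-0.10), Platr15 (-0.09) and Platr8 (-0.13) and in an intron of Platr2 (0.20) had WT means between 3.74 and 4.8 CPM. Among regulators of heart, muscle and neural cells 3 of 4 annotated genes held 10 regions, and 2 of the 4 tested were below 0 (median 0.11). Per kb of peaks all 4 were below 0 (median -0.20), and without WT replicate 1, 3 were (median -0.02). This list also counts Trp53cor1, a transcript of the p53 response near Cdkn1a and not of that class. It held 5 of the 10 regions and both tested ones above 0 (0.26 and 0.31), so the even split and the median of the list rested on it.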

How the data were processed

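Methylated DNA of whole islets was measured by MeDIP-seq in 2 WT and 2 βRapKO libraries. The authors aligned reads to mm10 with Bowtie2 (2.2.5 per the labels) and ran the peak caller on every library by itself, with no control library. The caller was MACS, 0.14.2 per the labels and 1.4.2 per the file headers, which give 1e-05 as cutoff on p, a limit of 1 tag at a position and 10000 bp as the local background. The labels name mm9 beside mm10, and no region ran past the end of a GRCm38 chromosome. In each peak the authors deposited a raw count of tags, a score (the −log10 of p, multiplied by 10) and a fold enrichment over background. Tags outside peaks were not used here. Without a control library, a peak can also mark a place where tags pile up for other reasons, such as repeats.

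In a merged region the tags of a library were summed over its peaks. Regions called in every library were tested with edgeR 4.0.16 in R 4.3.3 (quasi-likelihood test, Benjamini-Hochberg over 72519 regions), after the script had been tested on simulated data. Values per library were compared by an exact permutation test. Same-numbered libraries of the 2 genotypes did not deviate together (correlation 0.0464), so no pairing was used. Genes came from GENCODE M21, sequence and soft-masked repeats from GRCm38, and RefSeq names from its gene table. Alternatives were other scalings, DESeq2 1.42.0, limma 3.58.1 on log2(CPM + 0.5), at least 50 tags per library, stricter peaks (a score of at least 100), other overlap rules, chromosomes X and Y, equal numbers of top-ranked peaks, the replicate block and leaving out each library. Regions were also redefined as at least 50% inside a long noncoding gene, or as 10 kb or more from protein-coding genes.

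Named regions were the one with the most tags of a listed gene (13 that were called in every library, 1 of which is not reported here), the 6 of highest CPM, the 4 of smallest unadjusted p in either direction, and in either genotype the 3 of highest CPM that the other genotype lacked. H19 and Neat1 were named after their values were seen. The regions, gene lists and tests were chosen with earlier results of these data known. Other statistics were computed in Python 3.11.15 with SciPy 1.17.1, NumPy 2.4.6 and pandas 2.3.3. Replicate libraries differed by more than counting error (the mean chi-square of a region was 2.09 between WT libraries and 2.31 between βRapKO libraries, where counting error alone gives 1), so no interval was built from counting error.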

Additional observations from a re-analysis of the deposited data

How the results depend on the processing

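No region was called at the FDR under any setting. At an unadjusted p under 0.05 the counts of regions with fewer and with more tags in βRapKO, 145 and 86, became 39 and 233 with tags in peaks as library size, 90 and 138 with TMM, 27 and 31 with DESeq2, 433 and 14 for tags per kb of peaks, 90 and 43 with at least 50 tags in every library, and 61 and 32 with stricter peaks. The counts past 1.5-fold, 74 and 58, became 32 and 163, 52 and 94, 52 and 93, 152 and 5, 36 and 24, and 15 and 19 under these settings, and 37 and 27 with limma. The median log2 fold-change, -0.05, was 0.11 with tags in peaks as library size, 0.00977 with TMM, 0.0100 with DESeq2 and -0.15 for tags per kb of peaks. Over all tested regions the median moved alike, from -0.06 to 0.11, 0.00325, 0.00166 and -0.16 under the same settings. For the counts above no share of all tested regions is given. The log2 ratio of median density was 0.0392 with tags in peaks as library size.

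Without 1 library at a time, 92 to 207 regions had fewer tags and 79 to 113 more at an unadjusted p under 0.05, 113 to 233 and 89 to 145 were past 1.5-fold, the median log2 fold-change ran from -0.0936 to -0.0173 and the log2 ratio of median density from -0.13 to -0.12. With the replicate block the counts were 154 and 95 at an unadjusted p under 0.05, no region was called, and no named region changed its call or direction. Stricter peaks left 5223 regions, 284 of them called in WT only and 67 in βRapKO only. Equal numbers of peaks gave 242 regions called in WT only and 299 in βRapKO only.

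Of 315 values under the alternatives, for the 27 regions that the naming rule chose and that were tested, 287 kept their direction and 28 did not, and none passed the FDR. With tags in peaks as library size the log2 fold-change was 0.00311 at Mir142hg, 0.00455 at Mir99ahg, 0.0655 at Pax6os1, 0.0621 at Platr13, 0.0760 at Platr15, 0.0696 at Platr28, 0.0379 at Platr8, 0.0896 at Pvt1, 0.0849 at Snhg14, 0.0624 at Gm26917, 0.0610 at Muc19, 0.0481 at Gm48275 and 0.0830 at Gm43305. Per kb of peaks it was -0.42 at Meg3, -0.10 at Platr2, 0.00672 at Platr28, -0.26 at Gm26837, 0.0930 at Gm49742, 0.18 at Gm2164, -0.996 at 2010110G14Rik, -0.33 at 1810053B23Rik, -0.29 at Gm32171 and -0.00080 at Gm43101. Without 1 library at a time it ran from -0.0940 (without WT replicate 2) to 0.17 at Meg3, from -0.45 to 0.23 (without βRapKO replicate 1) at Pvt1 and from -0.19 (without WT replicate 2) to 0.25 at Gm26837. Without βRapKO replicate 2 it was -0.0245 at Meg3 and -0.00249 at Gm26837. The cause was not tested.

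With 2 libraries per genotype and tags counted inside peaks alone, small differences were not detectable, and larger ones did not pass the FDR either. Examples were log2 fold-changes of -1.25 at Gm2164 (adjusted p = 0.393, edgeR) and 1.08 at 1810053B23Rik (adjusted p = 0.386, edgeR). Regions without a peak in every library were not tested.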

Other observations

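Chromosomes X and Y were not part of the comparisons above. On X, 91 regions met the same definition and 41 were called in all 4 libraries, and on Y 14 did and 8 were. The X region with the most tags lay at Gm14697 (chrX:49424823-49427523), with a CPM of 14 and 13.4 in WT and 11 and 13.3 in βRapKO (log2 fold-change -0.17, adjusted p = 0.866 with edgeR). The next, at Gm14643 (chrX:40369996-40372949), had 9.34 and 9.86 against 9.68 and 9.97 (0.03).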
